A study of Rattus norvegicus with 10 samples.

Results

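Vitamin K dependent proteins carry gamma-carboxyglutamate (Gla) residues, which bind calcium and which are made in the endoplasmic reticulum from glutamate by a single carboxylase, Ggcx. The carboxylase oxidises reduced vitamin K to its epoxide, and the epoxide reductases Vkorc1 and Vkorc1l1 return it to the reduced form. In cartilage the best known product is matrix Gla protein, Mgp, which keeps the matrix from calcifying. Mutations of human ARSL (arylsulfatase L) cause X-linked recessive chondrodysplasia punctata, whose skeletal signs resemble those of fetuses exposed to warfarin, a drug that blocks the epoxide reductase.

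The genes described here are the vitamin K cycle enzymes and cartilage Gla proteins, chosen by symbol from a set of 9: the Gla proteins Mgp, Ucma, Gas6 and Pros1, the carboxylase Ggcx, the reductases Vkorc1, Vkorc1l1 and Nqo1, and the carboxylase inhibitor Calu. Rows were found for 7 of the 9 among the 10184 genes of the deposited table, and Vkorc1 and Vkorc1l1 were not analysed here. The samples were ARSL knockout (KO) RCS cells and wild-type (WT) RCS cells, 5 libraries each, grown without treatment in medium with 10% fetal bovine serum and 2 mM L-glutamine and harvested 48 h after seeding. RCS is a rat chondrosarcoma line whose cells make a cartilage-like matrix. The number of KO clones was not stated in any label or protocol, so the effect of the knockout and a difference between lines of another origin cannot be told apart. Arsl itself was not analysed here, and the labels of genotype stand without that check.

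Libraries held 2065594 to 2453015 reads over the listed genes in KO cells and 2118490 to 2591819 in WT cells. Along the first principal component, with 51.1% of the variance, WT 3 and WT 4 stood apart at 28.0 and 26.8 and ARSL KO 4 lay at 7.9, while the other 7 libraries lay between -15.0 and -3.0. Differences are therefore given both with all libraries and without these 3, a setting also called the fit of the other 7 libraries. Of 15 chondrocyte markers 13 had rows, with a summed level of 40266 to 54814 normalised reads in KO libraries and 41431 to 71072 in WT libraries. Normalised reads are read counts scaled by the size factor of each library, and the differences below are on the deposited log2-like scale. The median difference of the 13 chondrocyte markers was -0.08 with all libraries and 0.10 in the fit of the other 7. With all libraries 0 of them had a limma adjusted p under 0.05. In the fit of the other 7 libraries Col9a2, a collagen IX chain, rose by 0.33 (limma adjusted p = 0.0474). With all libraries its difference was -0.03 (adjusted p = 0.968). Of 10 fibroblast markers 4 had rows, with a summed level of 440.4 to 811.0 normalised reads in KO libraries and 875.9 to 1754 in WT libraries. Most of that sum was Col6a2, a collagen VI chain, which averaged 538.8 ± 142.7 normalised reads in KO cells and 1240 ± 417.0 in WT cells (SD, n = 5 each). Col6a2 fell by 1.11 (SE 0.21, limma adjusted p = 0.0184) and S100a4, a calcium-binding protein with means of 7.14 normalised reads in KO cells and 22.8 in WT cells, fell by 0.60 (SE 0.112, limma adjusted p = 0.0179), as they did in the fit of the other 7 libraries, at -0.92 and -0.71 (limma adjusted p = 1.13e-05 and 0.00252). Thy1, a cell-surface glycoprotein, differed by 0.08 (SE 0.149, limma adjusted p = 0.854; 0.12 in the fit of the other 7 libraries), and Pdgfra, a growth factor receptor, lay under the filter. S100a4 had a KO mean under the level of the filter, about 10.7 normalised reads, so it passed the filter through its WT level. The part of this list in the results below was not tested. Of 6 osteoblast markers 3 had rows, with sums of 532.7 to 834.4 normalised reads in KO libraries and 671.2 to 1141 in WT libraries. Macrophage markers, with 2 of 6 listed, summed to 15.6 to 19.6 normalised reads in KO libraries and 11.6 to 19.7 in WT libraries. The only endothelial marker listed, Vwf of a set of 5, had 9.23 to 29.3 in KO libraries and 13.5 to 44.9 in WT libraries. Not analysed here were the chondrocyte markers Sox9 and Snorc, the fibroblast markers Col1a1, Col1a2, Col3a1, Col6a1, Dcn and Lum, the osteoblast markers Sp7, Bglap and Dmp1, the macrophage markers Ptprc, Csf1r, Itgam and Aif1, and the endothelial markers Pecam1, Cdh5, Kdr and Tek.

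All 7 genes passed the filter on low values, a mean over the 10 libraries at least 1 above the lowest value of the table (about 10.7 normalised reads). Of these 7 genes, Ucma fell in KO cells and the other 6 did not pass the test. A gene is called at a limma adjusted p under 0.05 over all 8431 tested genes, and 1.14% of those genes were called, 0.261% upward and 0.878% downward. At an unadjusted limma p under 0.05 there were 4 of the 7, against 13.5% of all tested genes. The median difference KO minus WT was -0.29 over the 7 genes and 0.01 over all tested genes. In the fit of the other 7 libraries these medians were -0.14 and 0.01. Without WT 3, WT 4 and ARSL KO 4, Ucma fell and Calu rose, while 3.58% of 8376 tested genes were called, 1.36% upward and 2.22% downward.

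**Figure D1:**
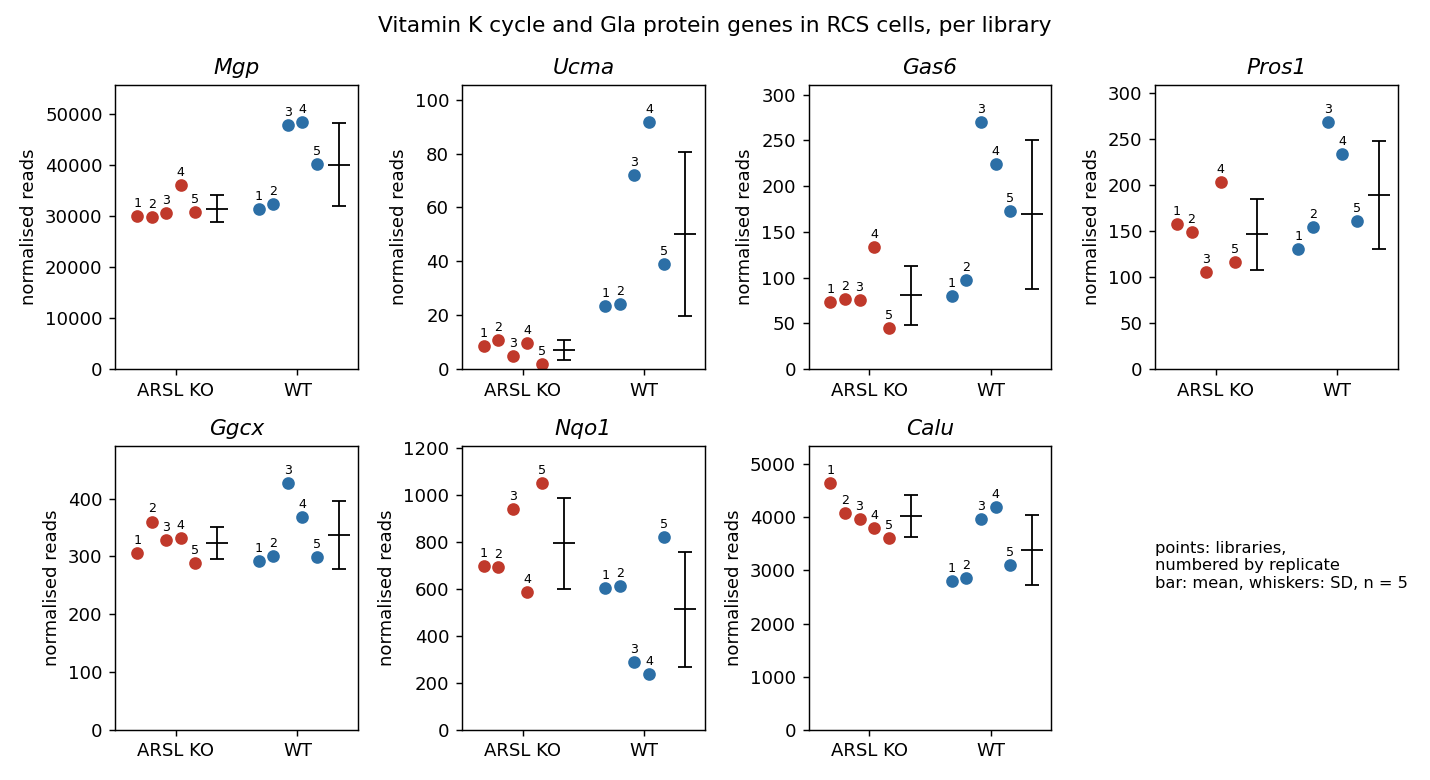
Normalised reads (vertical axes, from 0) of the 7 genes in each ARSL KO (red) and WT (blue) library, numbered by replicate, with the mean as a bar and the SD as whiskers (n = 5 each). Ucma is the only one of the 7 genes whose KO libraries, at 1.79 to 10.9, lie entirely below its WT libraries, at 23.5 to 91.8.

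Ucma (ENSRNOG00000017987), also known as Gla-rich protein, is a small protein secreted by chondrocytes that is densely set with Gla residues. It had 8.59, 10.9, 4.62, 9.76 and 1.79 normalised reads in KO libraries 1 to 5, against 23.5, 24.2, 72.2, 91.8 and 39.1 in WT libraries 1 to 5. No KO library reached the lowest WT library, WT 1, and the highest WT values were those of WT 3 and WT 4. Over all tested genes, 4.26% had KO and WT values that did not overlap. In bulk RNA, fewer cells that express a gene and less RNA per cell cannot be told apart.

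These values rest on few reads, 2 to 10 per KO library and 25 to 96 per WT library, in all 35 reads in KO and 251 in WT. The mean was 7.12 ± 3.80 normalised reads in KO cells and 50.2 ± 30.5 in WT cells (SD, n = 5 each), 7.04-fold lower in KO. On the log2-like scale, which understates the change of weakly expressed genes, Ucma fell by 1.16 (SE 0.212, 95% interval -1.61 to -0.70, limma adjusted p = 0.0176), and 6 of 8431 tested genes had a more negative difference. Its mean in KO cells, 5.21, lay less than 1 above the lowest value of the table, 4.42, so it passed the filter through its WT level. Fitted to reads with limma-voom, the difference was -2.71 (SE 0.545, adjusted p = 0.0265).

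In the fit that omits WT 3, WT 4 and ARSL KO 4, the mean of Ucma was 6.46 ± 4.04 normalised reads in KO cells (n = 4) and 28.9 ± 8.81 in WT cells (SD, n = 3), 4.48-fold lower in KO. The difference was then -0.83 (SE 0.153, limma adjusted p = 0.0016). The call was lost without ARSL KO 3 (limma adjusted p = 0.0623) or ARSL KO 5 (0.0619), while the difference ranged from -1.28 to -0.99 when any 1 library was omitted.

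The promoter of Ucma is shown because it is the gene of the 7 that passed the test with all libraries. Promoter sequences are from RefSeq on GRCr8, 250 bases before to 50 bases after the gene's start, read along the gene's strand, with motif matches in capitals. The motifs searched on both strands were the core promoter box TATAAA, the core of the antioxidant response element, TGACNNNGC, the core recognised by SOX proteins, ACAAT, the GC-rich box GGGCGG and the E box, CACGTG. They occurred in 14.2%, 12.1%, 33.7%, 33.1% and 6.42% of 33469 promoters of that length, in that order. The Ucma promoter, chr17:78212947-78213246 on the minus strand, held 0 matches of these 5 motifs in a window of 54.3% G and C.
Ucma: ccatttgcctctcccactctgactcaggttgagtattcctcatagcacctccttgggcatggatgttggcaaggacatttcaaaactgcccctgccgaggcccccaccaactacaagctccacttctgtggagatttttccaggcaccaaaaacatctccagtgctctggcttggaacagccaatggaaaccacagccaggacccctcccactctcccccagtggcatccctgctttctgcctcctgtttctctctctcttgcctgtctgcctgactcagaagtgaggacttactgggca

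Mgp (ENSRNOG00000005695), the inhibitor of cartilage and artery calcification, took the second highest row of the table in each of the 10 libraries. It had 29864, 29846, 30450, 36074 and 30719 normalised reads in KO libraries 1 to 5, against 31404, 32345, 47878, 48380 and 40231 in WT libraries 1 to 5. WT 3 and WT 4 were highest, WT 5 came next, and ARSL KO 4 lay above WT 1 and WT 2, so the genotypes overlapped. Mgp took 1.33% to 1.59% of the reads of the listed genes in KO libraries and 1.39% to 2.08% in WT libraries.

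The mean of Mgp was 31391 ± 2645 normalised reads in KO cells and 40048 ± 8136 in WT cells (SD, n = 5 each), and the difference was -0.33 (SE 0.151, 95% interval -0.65 to -0.01, limma adjusted p = 0.354). Without WT 3, WT 4 and ARSL KO 4 the remaining KO libraries, at 29846 to 30719, lay below the remaining WT libraries, at 31404 to 40231, and 14.5% of all tested genes had no overlap in these 7 libraries. The difference was then -0.19 (SE 0.121, 95% interval -0.44 to 0.06, limma adjusted p = 0.483). After quantile normalization the difference was 0, since a gene that holds the same rank in every library is given the same value.

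Gas6 (ENSRNOG00000018233) encodes a Gla protein that is the ligand of the receptor kinases Tyro3, Axl and Mertk. It had 73.0, 76.0, 75.7, 133.7 and 44.8 normalised reads in KO libraries 1 to 5, against 80.2, 97.7, 270.2, 224.7 and 172.3 in WT libraries 1 to 5. ARSL KO 4 alone among the KO libraries exceeded WT 1 and WT 2. The mean was 80.7 ± 32.4 in KO cells and 169.0 ± 81.1 in WT cells (SD, n = 5 each), with a difference of -0.76 (SE 0.25, 95% interval -1.29 to -0.22, limma adjusted p = 0.189). Gas6 did not pass the test, although 41 of 8431 tested genes had a more negative difference. When WT 3, WT 4 and ARSL KO 4 were left out, the difference was -0.53 (SE 0.155, limma adjusted p = 0.0535), and KO values of 44.8 to 76.0 normalised reads lay below WT values of 80.2 to 172.3. Of all tested genes, 14.5% had no overlap in these 7 libraries.

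The Gas6 promoter, chr16:82747426-82747725 on the plus strand, is shown because Gas6 had the largest difference among the Gla protein genes that did not pass. It held 3 copies of the GC box, in capitals, and none of the other 4 motifs.
Gas6: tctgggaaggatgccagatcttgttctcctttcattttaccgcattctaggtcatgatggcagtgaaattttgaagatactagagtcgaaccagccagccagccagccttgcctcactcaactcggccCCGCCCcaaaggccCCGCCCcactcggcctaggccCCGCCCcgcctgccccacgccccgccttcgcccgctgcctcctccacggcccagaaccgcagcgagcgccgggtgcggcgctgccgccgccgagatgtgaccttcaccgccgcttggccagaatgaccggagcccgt

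Pros1 (ENSRNOG00000048723) encodes protein S, an anticoagulant Gla protein and a second ligand of Tyro3 and Mertk. It had 157.8, 148.8, 105.2, 203.0 and 115.7 normalised reads in KO libraries 1 to 5, against 129.9, 153.9, 268.1, 233.3 and 160.7 in WT libraries 1 to 5. The genotypes overlapped, with ARSL KO 4 above 3 of the WT libraries and WT 3 and WT 4 above every KO library. The difference was -0.29 (SE 0.174, 95% interval -0.66 to 0.08, limma adjusted p = 0.492), and -0.14 (SE 0.118, limma adjusted p = 0.633) without WT 3, WT 4 and ARSL KO 4.

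**Figure D2:**
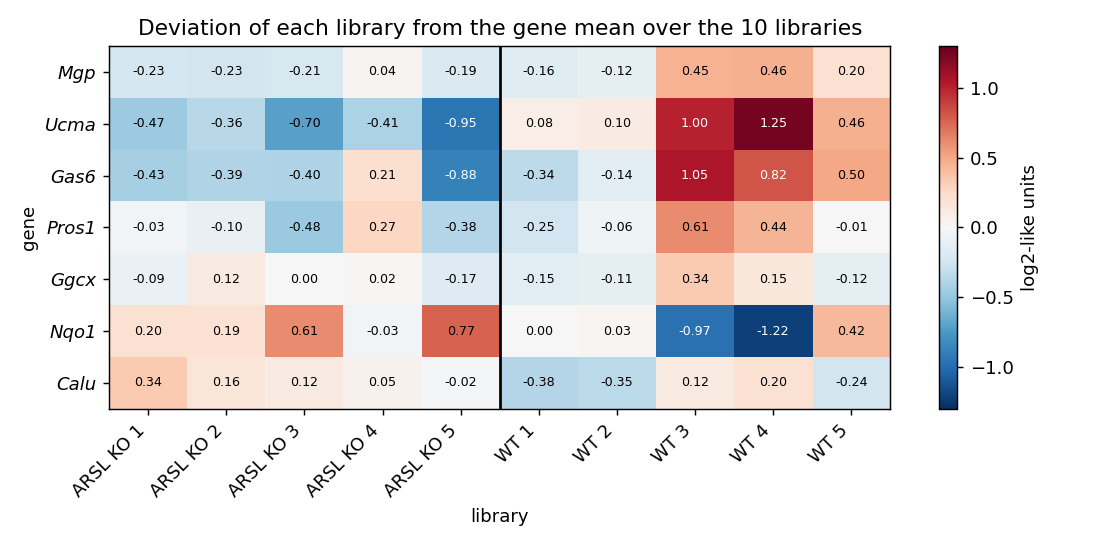
Deviation of each library (columns, ARSL KO left of WT) from the mean of each gene (rows) over the 10 libraries, in log2-like units. WT 3 and WT 4 lie above the mean for all the Gla protein genes, Ggcx and Calu, by 1.00 and 1.25 for Ucma, and at -0.97 and -1.22 for Nqo1.

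Ggcx (ENSRNOG00000012975), the carboxylase that all Gla proteins need, had 306.0, 360.6, 328.7, 332.8 and 287.9 normalised reads in KO libraries 1 to 5. In WT libraries 1 to 5 it had 292.9, 300.0, 427.8, 369.0 and 299.2. The ranges overlapped and the highest values were those of WT 3 and WT 4. The mean was 323.2 ± 27.7 in KO cells and 337.8 ± 59.2 in WT cells (SD, n = 5 each). The difference was -0.05 (SE 0.11, limma adjusted p = 0.882), and its 95% interval ran from -0.28 to 0.19. It was 0.03 without WT 3 and 0.09 (SE 0.093, 95% interval -0.10 to 0.28, limma adjusted p = 0.71) without WT 3, WT 4 and ARSL KO 4, so its sign depended on those libraries.

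Nqo1 (ENSRNOG00000012772), a quinone reductase that can reduce vitamin K and a target of the transcription factor NRF2, had its lowest values where the Gla protein genes had their highest, without passing the test. It had 696.7, 691.9, 939.8, 585.5 and 1050 normalised reads in KO libraries 1 to 5, against 602.3, 612.6, 286.7, 235.2 and 819.2 in WT libraries 1 to 5. WT 3 and WT 4 were lowest, ARSL KO 5 and ARSL KO 3 were highest, and WT 5 lay above 3 of the KO libraries. The mean was 792.8 ± 193.8 in KO cells and 511.2 ± 245.0 in WT cells (SD, n = 5 each), 1.55-fold higher in KO. The difference was 0.69 (SE 0.27, 95% interval 0.12 to 1.27, limma adjusted p = 0.263), and 13 of 8431 tested genes had a more positive one. It was 0.29 without WT 3, WT 4 and ARSL KO 4 (SE 0.12, limma adjusted p = 0.21), with 1.25-fold higher normalised reads in KO.

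The Nqo1 promoter, chr19:52220218-52220517 on the minus strand, is shown as that of the NRF2 target of the set. This window held 1 match of TATAAA, beginning at -59 from the gene's start, and 1 GC box, both in capitals. The same window held 0 matches of the antioxidant response element core. Bases outside it, beyond 250 before or 50 after the start, were not searched.
Nqo1: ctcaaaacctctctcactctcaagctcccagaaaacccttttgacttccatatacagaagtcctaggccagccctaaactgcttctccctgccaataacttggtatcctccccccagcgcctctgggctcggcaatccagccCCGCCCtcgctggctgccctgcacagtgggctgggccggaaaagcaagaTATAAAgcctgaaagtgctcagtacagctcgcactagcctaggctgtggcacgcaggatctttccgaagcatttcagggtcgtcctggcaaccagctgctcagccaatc

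Calu (ENSRNOG00000006197) encodes calumenin, a calcium-binding protein of the endoplasmic reticulum that inhibits the carboxylase. It had 4654, 4088, 3966, 3799 and 3618 normalised reads in KO libraries 1 to 5, against 2806, 2860, 3967, 4200 and 3095 in WT libraries 1 to 5. Every KO library lay above WT 1, WT 2 and WT 5, while WT 3 and WT 4 lay within the range of the KO libraries. Without WT 3, WT 4 and ARSL KO 4 the genotypes thus did not overlap, as for 14.5% of all tested genes in that setting. With all libraries the mean was 4025 ± 393.6 in KO cells and 3386 ± 651.5 in WT cells (SD, n = 5 each), and the difference of 0.26 (SE 0.129, 95% interval -0.01 to 0.54, limma adjusted p = 0.396) did not pass.

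Without WT 3, WT 4 and ARSL KO 4, Calu rose in KO cells, to 4082 ± 430.5 normalised reads (n = 4) against 2920 ± 153.8 in WT cells (SD, n = 3), 1.40-fold higher in KO. The difference was 0.47 (SE 0.092, 95% interval 0.28 to 0.66, limma adjusted p = 0.00278). The Calu promoter, chr4:58914206-58914505 on the plus strand, is shown for this call. It held 2 copies of the SOX core and 2 of the GC box, in capitals, and none of the other 3 motifs.
Calu: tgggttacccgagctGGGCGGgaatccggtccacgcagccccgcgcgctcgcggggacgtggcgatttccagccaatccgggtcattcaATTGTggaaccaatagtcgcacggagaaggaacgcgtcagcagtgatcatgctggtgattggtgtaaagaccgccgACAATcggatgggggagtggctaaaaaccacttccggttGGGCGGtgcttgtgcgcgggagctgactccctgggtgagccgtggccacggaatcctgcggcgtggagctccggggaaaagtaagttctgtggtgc

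**Figure D3:**
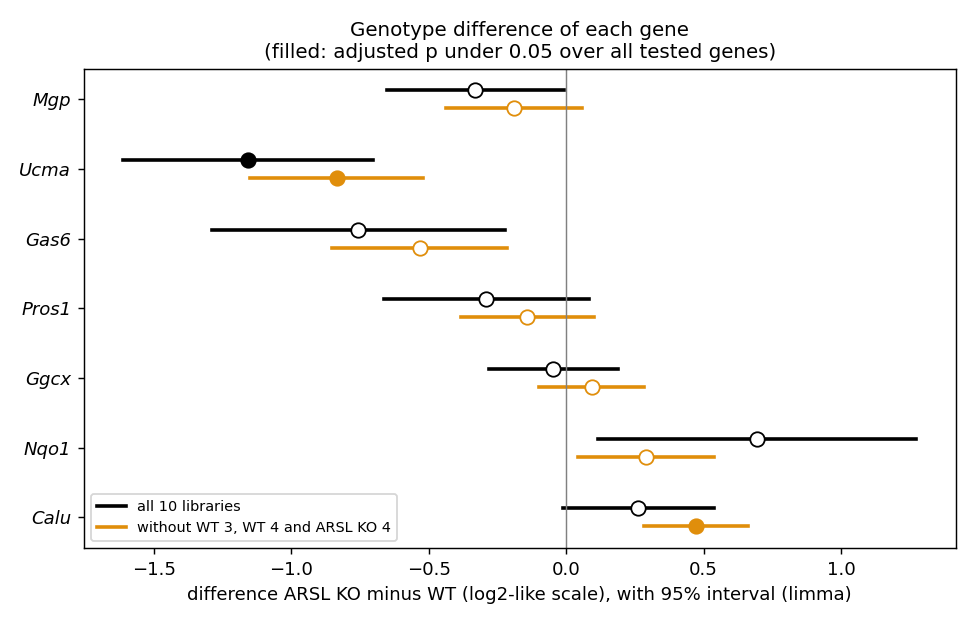
Difference ARSL KO minus WT of each gene on the log2-like scale (horizontal axis) with its 95% interval from limma, over all 10 libraries (black) and without WT 3, WT 4 and ARSL KO 4 (orange); filled points have an adjusted p under 0.05. Ucma is filled in both fits, at -1.16 and -0.83, and Calu in the second, at 0.47.

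Other genes of the pathway came from 8 lists with 81 distinct symbols, of which 52 had rows and 47 were tested. With all libraries 0 of the 47 were called by limma and 0 by limma-voom, against 1.14% of all tested genes, and 6 of the 47, or 12.8%, had an unadjusted limma p under 0.05, against 13.5% of all tested genes. Their median difference was 0.01, as was that of all tested genes. Without WT 3, WT 4 and ARSL KO 4, Alpl fell and no other of the 47 passed.

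Of 14 other proteins that carry or are reported to carry Gla residues, 2 had rows and 1 was tested. Prrg4, a transmembrane Gla protein, had 29.0 to 99.6 normalised reads in KO libraries and 30.6 to 93.3 in WT libraries, with a difference of -0.13 (SE 0.21, limma adjusted p = 0.82), and -0.41 (SE 0.165, limma adjusted p = 0.188) in the fit of the other 7 libraries. Prrg2, another transmembrane Gla protein, lay under the filter at 3.69 to 17.6 normalised reads in KO libraries and 1.94 to 19.1 in WT libraries.

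In the list of vitamin K supply and turnover, 0 of 8 tested genes were called, with a median difference of -0.13, and -0.05 in the fit of the other 7 libraries. The smallest p was that of Lrp1, an endocytic receptor that takes up lipoprotein remnants, carriers of the lipid-soluble vitamin. Lrp1 had 58.2 to 107.5 normalised reads in KO libraries and 85.4 to 215.5 in WT libraries, with its highest values in WT 3 and WT 4. Its difference was -0.50 (SE 0.21, limma adjusted p = 0.311), and -0.19 (SE 0.134, limma adjusted p = 0.546) when WT 3, WT 4 and ARSL KO 4 were left out. Aifm2, a further reductase of vitamin K, had a difference of -0.01 (SE 0.135, limma adjusted p = 0.988) with all libraries and of -0.24 (SE 0.128, limma adjusted p = 0.366) in the fit of the other 7.

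Among the receptors of Gas6 and Pros1 and the proteases that shed them, 0 of 4 tested genes were called, with a median difference of 0.01, and -0.02 in the fit of the other 7 libraries. Tyro3 had 38.6 to 61.9 normalised reads in KO libraries and 23.0 to 51.3 in WT libraries, and Mertk had 9.87 to 19.5 in KO libraries and 12.7 to 31.9 in WT libraries. The limma difference of Tyro3 was 0.22 with all libraries and 0.19 in the fit of the other 7 (adjusted p = 0.488 and 0.529), and that of Mertk was -0.20 and -0.23 (adjusted p = 0.49 and 0.466). Axl was not analysed here. Adam17, a sheddase with the smallest p of the list, differed by 0.27 (SE 0.101, limma adjusted p = 0.246), and by 0.27 (adjusted p = 0.123) in the fit of the other 7 libraries.

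In the list of precursor processing, 0 of 5 tested genes were called, and the median difference was -0.09 with all libraries but 0.06 in the fit of the other 7. Fam20c, a Golgi kinase that phosphorylates secreted proteins, had 188.3 to 407.3 normalised reads in KO libraries and 381.6 to 640.0 in WT libraries, with its highest values in WT 3 and WT 4. Its difference was -0.56 (SE 0.193, limma adjusted p = 0.208), and -0.36 (SE 0.138, adjusted p = 0.164) in the fit of the other 7 libraries. Furin, a protease that cuts precursors of secreted proteins, differed by 0.06 (SE 0.116, limma adjusted p = 0.854) and 0.11 (adjusted p = 0.719) in those fits.

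Mgp binds bone morphogenetic proteins (BMPs), and of 9 tested genes of BMP signalling and Mgp's matrix partners 0 were called, with a median difference of 0.07, and 0.11 in the fit of the other 7 libraries. Id1, a direct BMP target, had 268.4, 279.1, 389.6, 210.8 and 530.9 normalised reads in KO libraries 1 to 5, against 263.2, 209.0, 106.1, 97.5 and 256.9 in WT libraries 1 to 5. WT 3 and WT 4 were lowest, and ARSL KO 4 was the lowest of the KO libraries. The difference of Id1 was 0.75 (SE 0.254, limma adjusted p = 0.195), and 0.48 (SE 0.142, limma adjusted p = 0.0551) without those 3 libraries. Id1 passed with a block by replicate number (limma adjusted p = 0.0419), although whether the numbers pair the samples could not be decided.

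Among 6 tested genes of mineral balance 0 were called, and the median difference was -0.03 with all libraries but 0.10 in the fit of the other 7. Alpl, the alkaline phosphatase that removes the mineralization inhibitor pyrophosphate and is also an osteoblast marker, had 239.4, 243.3, 210.5, 297.7 and 234.1 normalised reads in KO libraries 1 to 5. In WT libraries 1 to 5 it had 307.7, 302.9, 393.9, 420.6 and 356.2, so every KO library lay below every WT library. Of all tested genes, 4.26% had KO and WT values that did not overlap. The difference of -0.47 (SE 0.11, limma adjusted p = 0.0566) did not pass with all libraries, while without WT 3, WT 4 and ARSL KO 4 Alpl fell by 0.41 (SE 0.095, limma adjusted p = 0.0105). Alpl also passed without ARSL KO 4 (limma adjusted p = 0.0328), WT 1 (0.0491) or WT 2 (0.0473) alone, and with a block by replicate number (0.0388). Enpp1, which makes pyrophosphate, differed by -0.16 (SE 0.258, limma adjusted p = 0.819) with all libraries, and by 0.22 (SE 0.132, adjusted p = 0.437) in the fit of the other 7, so its sign depended on those libraries.

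**Figure D4:**
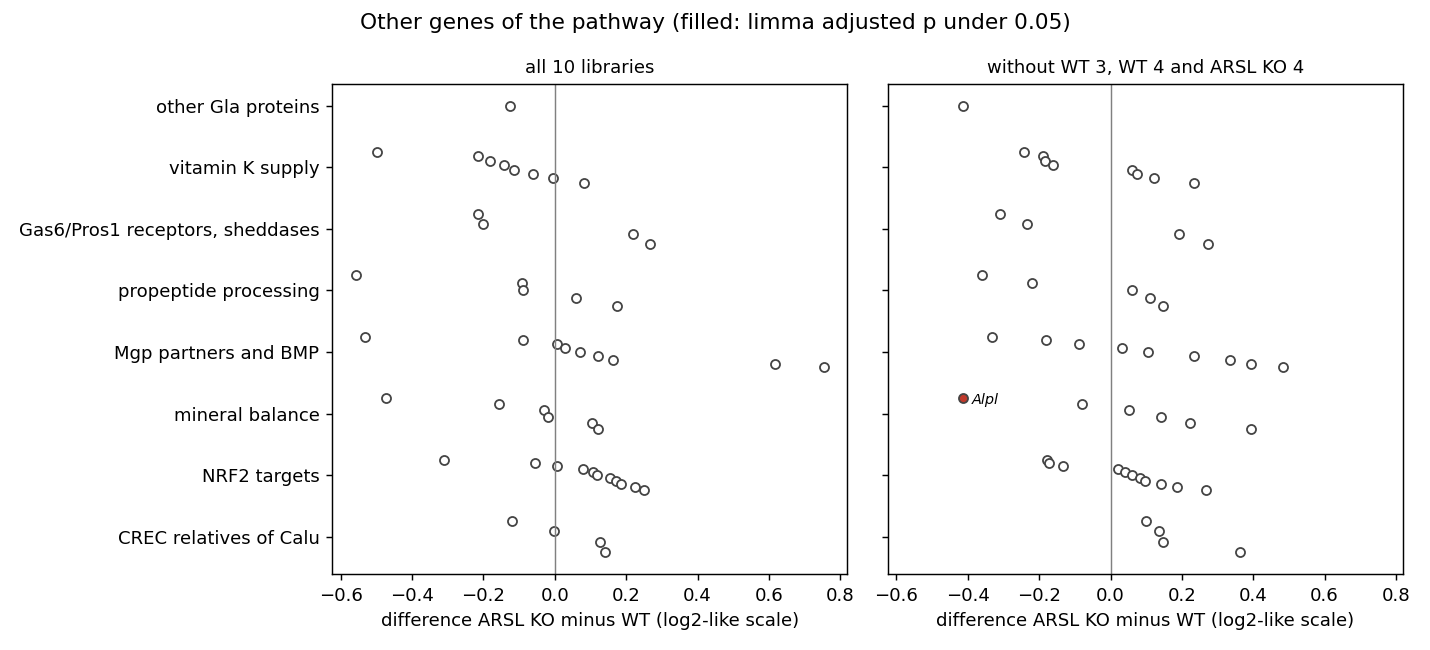
Difference ARSL KO minus WT (horizontal axes, log2-like scale) of each tested gene of the 8 lists (rows), with all 10 libraries (left) and without WT 3, WT 4 and ARSL KO 4 (right); filled points have a limma adjusted p under 0.05. Left, none is filled; right, Alpl alone is filled, at -0.41.

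Beside Nqo1, 11 genes of the NRF2 list were tested and 0 were called, with a median difference of 0.12, and 0.06 in the fit of the other 7 libraries. Nfe2l2, which encodes NRF2 itself, had 132.5 to 167.9 normalised reads in KO libraries and 97.3 to 135.5 in WT libraries, with a difference of 0.22 (SE 0.101, limma adjusted p = 0.348), and 0.19 (adjusted p = 0.429) in the fit of the other 7. Hmox1, heme oxygenase 1, and Txnrd1, thioredoxin reductase 1, did not pass, with limma differences of -0.06 (SE 0.198, adjusted p = 0.926) and 0.11 (SE 0.192, adjusted p = 0.833). In the fit of the other 7 libraries these were -0.13 (SE 0.195, limma adjusted p = 0.823) and -0.17 (SE 0.089, adjusted p = 0.351), so the sign of Txnrd1 turned. Of the 4 relatives of Calu in the CREC family, 0 were called, with a median difference of 0.06, and 0.14 in the fit of the other 7 libraries. Rcn1 had the smallest p with all libraries, with a difference of 0.14 (SE 0.143, limma adjusted p = 0.687), and 0.13 (adjusted p = 0.728) in the fit of the other 7. Rcn3 differed by 0.13 (SE 0.177, limma adjusted p = 0.781) with all libraries. In the fit of the other 7, where Calu was called, Rcn3 differed by 0.36 (SE 0.108, limma adjusted p = 0.0598) and did not pass.

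The genes with profiles most like those of these genes over the 10 libraries were found by the root mean square difference of z-scores, whose median over the 7893 genes compared was 1.34 to 1.36 for the 7 genes. For Ucma they were PCOLCE2 at 0.11, Sdf2l1 at 0.15 and Ecrg4 at 0.17. For Mgp they were Tmem140 at 0.20, Mrps6 at 0.21 and Serinc5 at 0.22, and for Gas6 S100b at 0.17, Vrk3 at 0.18 and Rundc3a at 0.20. Pros1 was nearest to Eps8l2 at 0.23, Trafd1 at 0.24 and Tmed10 at 0.24. For Ggcx the nearest were Tjap1 at 0.13, Pip5k1c at 0.28 and Bcl3 at 0.29, for Nqo1 Tsr1 at 0.23, Ehd1 at 0.24 and Taf1d at 0.24, and for Calu Sp1 at 0.21, Matn1 at 0.31 and Gdf10 at 0.34. These profiles share the same 10 libraries, among which WT 3 and WT 4 stood apart.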

How the data were processed

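Per the labels' protocols, RNA of 5 ARSL KO and 5 WT RCS samples, labelled biological replicates, was profiled by a digital mRNA sequencing service. The submitters' processing notes name bcl2fastq, STAR 2.7.11a, HTSeq and the rat build rn6, with the use of strand not given in the sources used here. What the authors deposited was 1 table of variance-stabilized log2-like values normalized for library size, with 10184 genes, each with at least 30 reads in total; 813 rows had no symbol. Inverting the transformation from its lowest value, 4.42, put 100% of values on whole reads within 1e-06 reads.

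The genotype difference was fitted to the log2-like values in limma 3.58.1 (R 4.3.3), with an intensity trend, two-sided, with Benjamini-Hochberg adjustment over 8431 genes. Library measures used exact permutation tests over 252 assignments. Libraries of a group differed by more than sampling noise (chi-square per degree of freedom 1.85 or more) and were kept apart. The labels do not say whether they were separate cultures, so p-values measure the spread between these samples, which may be technical. Whether replicate numbers pair the samples could not be decided. Total reads, the share of the 10 most abundant genes and the share of Mt- symbols gave exact permutation p = 0.563, 0.0317 and 0.119 (adjusted over the 3 measures 0.563, 0.0952 and 0.179). The share of the top 10 genes was 10.0% to 13.8% in KO libraries and 13.7% to 14.3% in WT libraries.

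The genes and lists were chosen with earlier results of these data known. From each list the text names the called genes, up to 2 in each direction, or the gene with the smallest p, and the 3 genes most like each gene. Prrg2, Aifm2, Tyro3, Mertk, Furin, Enpp1, Hmox1 and Txnrd1 were added for their roles after their values were seen. Rcn3 was added for its difference in the fit of the other 7 libraries. Some genes of the lists are not reported here and were left out of the lists' counts. The settings tried were a block by replicate number, other filters, median centring, quantile normalization, other variance priors, limma-voom on recovered reads and omission of libraries. Figures were drawn with matplotlib 3.10.9.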

Additional observations from a re-analysis of the deposited data

Results flagged for a closer look

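Among the 5 ARSL KO libraries, ARSL KO 4 had a Mgp value of 15.14 on the log2-like scale, apart from the other 4, which lay between 14.87 and 14.91. The share of reads of genes whose symbol begins with Mt- was 3.67% in ARSL KO 3, apart from the other KO libraries, whose shares lay between 4.64% and 5.03%. These were 2 of 20 groups of 5 values checked, and chance alone sets apart about 1 in 20.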

How the results depend on the processing

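Over all genes, 96 calls (22 up, 74 down) became 60 with the stricter filter (45 down) and 300 without WT 3, WT 4 and ARSL KO 4 (114 up, 186 down), a setting chosen after earlier results were known. With 1 library left out they numbered 33 to 102, 8 to 24 up and 25 to 78 down. Among the 7 genes, the 1 call, downward, became 0 with the stricter filter, which left Ucma out, and 0 to 1 with 1 library left out. Without the 3 libraries together 2 genes were called, 1 up and 1 down. Mgp had a difference of 0 after quantile normalization, and Ggcx, at -0.047, changed sign to 0.034 without WT 3 and 0.093 without the 3 libraries; with 1 library left out it ranged from -0.089 to 0.034. Calu passed only without WT 3, WT 4 and ARSL KO 4 together. For Gas6, Nqo1 and Pros1, direction and side of the threshold were kept in all 19 settings. Same-numbered libraries did not all deviate together (correlations across genes of -0.064, 0.069, -0.293, 0.587 and 0.263). ARSL KO 4 correlated with WT 4 at 0.587 and with WT 3 at 0.579. These correlations therefore cannot decide whether the numbers pair the samples. A replicate block gave 136 calls over all genes and 1 among the 7, Ucma, at -1.16. Among the 47 genes of the companion lists, Alpl was called in 5 of these settings (limma adjusted p = 0.0105 to 0.0491), the replicate block and the omission of ARSL KO 4, WT 1, WT 2 or the 3 libraries, and Id1 in 1, the replicate block, while no other was called in any. Depth limits Ucma most, at 2 to 10 reads per KO library.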
